A study of Mus musculus with 6 samples.

Results

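The Sprouty, Spred and Errfi1 genes encode intracellular inhibitors of receptor tyrosine kinase signalling, and 6 of them were followed in mouse dermal fibroblasts treated with interleukin-1 (IL-1), namely Spry1, Spry2, Spry4, Spred1, Spred2 and Errfi1. All non-control probes that the arrays assign to these genes were taken, which gave 11 of 41174 probes. The arrays list Errfi1 under its older name 1300002F13Rik, and its probe was matched through its RefSeq accession. Of the 11 probes, 10 were kept after a filter on dim spots that left 30580 probes in all. The cells were C57BL/6 dermal fibroblasts grown with 10% FBS and treated with IL-1 at 20 ng/ml for 1, 2 or 4 h, and the reference was RNA of untreated fibroblasts (0 h) of the same strain. Each time point was hybridised on 2 two-colour arrays with the dyes exchanged, so the IL-1 RNA is in Cy5 on replicate 1 and in Cy3 on replicate 2. Both arrays of a time point hold the same RNA pair and enter as 1 sample. The sources used here give neither the number of mice or cultures nor the form of IL-1.

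Receptor tyrosine kinases for growth factors such as EGF, FGF and PDGF signal through adaptor proteins to Ras and on to the kinases Raf, MEK and ERK. Sprouty proteins are recruited to the membrane after receptor activation and restrain this path at or near Ras and Raf, and their own genes are commonly switched on by ERK, which makes them feedback inhibitors. Spred proteins carry an EVH1 domain and a Sprouty-like domain and bring the Ras inactivator neurofibromin to the membrane. Errfi1, also known as Mig6 or RALT, binds the kinase domain of the EGF receptor and its relatives directly, blocks it and promotes removal of the receptor. IL-1 itself acts through a receptor without kinase activity that leads to NF-kB and the MAP kinases.

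The promoters of the genes with the largest responses are shown here as context for the expression values. Each window runs from 250 bases before to 50 bases after an annotated start site, in RefSeq coordinates of GRCm38.p6, and capitals mark a match to a motif on either strand. Errfi1 has a pair of annotated starts, both on the plus strand, in the windows chr4:150853546-150853845 and chr4:150854820-150855119. The Spry1 window is chr3:37639697-37639996, also on the plus strand.
Errfi1 first start: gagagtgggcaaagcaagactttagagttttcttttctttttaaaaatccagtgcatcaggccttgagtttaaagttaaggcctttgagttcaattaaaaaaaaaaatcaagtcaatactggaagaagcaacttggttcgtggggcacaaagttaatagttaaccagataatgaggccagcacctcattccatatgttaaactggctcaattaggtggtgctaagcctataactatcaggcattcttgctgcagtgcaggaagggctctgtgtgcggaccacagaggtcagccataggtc
Errfi1 second start: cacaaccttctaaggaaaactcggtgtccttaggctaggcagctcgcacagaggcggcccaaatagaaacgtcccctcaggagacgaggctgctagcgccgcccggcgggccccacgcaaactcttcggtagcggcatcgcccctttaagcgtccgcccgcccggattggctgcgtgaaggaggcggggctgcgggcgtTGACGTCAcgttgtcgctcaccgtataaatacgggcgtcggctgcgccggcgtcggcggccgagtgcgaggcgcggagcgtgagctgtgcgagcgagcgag
Spry1: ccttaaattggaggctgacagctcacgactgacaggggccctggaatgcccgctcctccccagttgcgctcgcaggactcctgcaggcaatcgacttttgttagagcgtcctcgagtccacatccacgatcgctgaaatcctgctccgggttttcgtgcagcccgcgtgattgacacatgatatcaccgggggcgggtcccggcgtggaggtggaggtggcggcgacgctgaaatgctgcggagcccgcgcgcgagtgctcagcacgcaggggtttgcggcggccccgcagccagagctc

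The motifs searched were the AP-1 site TGANTCA, the cyclic AMP response element TGACGTCA, the EGR site GCGNGGGCG, the ETS site CCGGAAGT, and the kappaB and CArG consensus sites. No motif overlapped another in these windows. The second Errfi1 window holds 1 cyclic AMP response element, a motif found in 1.79% of all 32851 promoter windows of this length. None of the 6 letter patterns occurs in the first Errfi1 window, in the Spry1 window or in those of Spry2, Spred1 and Spred2. The Spry4 window is not reported here. Over all promoter windows the shares were 7.81% for AP-1, 5.55% for EGR, 3.89% for ETS, 4.51% for kappaB and 1.63% for CArG. A match describes the letters only.

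The arrays as a whole were even in brightness. Median raw signals of the probes were 121.8 to 132.6 in the IL-1 channel and 123.5 to 137.7 in the untreated channel. The negative control spots had a median normalised signal of 57.4 to 60.8, which includes an added offset of 50. All 9 fibroblast markers (among them Col1a1, Col3a1, Dcn and Pdgfra) were well above background in the untreated channel of all 6 arrays, and 3 of them were saturated on at least 1 array. Among markers of other skin cells, 4 of 6 keratinocyte, 5 of 6 leukocyte, 1 of 4 endothelial and 1 of 4 melanocyte genes carried that flag too. So did 6.05% to 14.3% of the negative control spots of an array in Cy3, and 0% to 2.55% in Cy5. Log2 signals in the untreated channel ran from 7.51 to 15.81 over the fibroblast list, from 5.83 to 8.62 over the keratinocyte list and from 6.04 to 8.76 over the leukocyte list, and signals of different probes are not on 1 scale. The negative controls were at 5.84 to 5.93. The part of other cells in the results was not tested. The chemokine gene Cxcl1, a standard IL-1 target, was higher in the labelled direction, at log2 ratios of 6.21, 5.49 and 4.84 at 1, 2 and 4 h.

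Errfi1 was the gene of the group that rose. Its mRNA stood 2.63-fold above the untreated level at 1 h, 1.92-fold at 2 h and 1.39-fold at 4 h. The Errfi1 probe (NM_133753, chr4:149360780-149360839 in the arrays' own coordinates, of a build that the sources used here do not give) was well above background on all 6 arrays in both channels. At 1 h its normalised signals were 4242 and 4056 with IL-1, against 1744 and 1429 in untreated cells. At 2 h they were 2626 and 3216 with IL-1, against 1466 and 1564 in untreated cells. At 4 h they were 2639 and 2150 with IL-1, against 2014 and 1463 in untreated cells. The IL-1 channel was the brighter one on each of the 6 arrays, and its lowest signal lay above the highest untreated signal. Signals were not scaled between arrays, so the ratio within an array is the measurement.

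The log2 ratios of Errfi1, IL-1 over untreated, at 1 h were 1.28 on replicate 1 and 1.5 on replicate 2. At 2 h they were 0.84 and 1.04 in that order, and at 4 h 0.39 and 0.56. The orientations of a time point lay 0.11, 0.10 and 0.083 from their mean, within the range of all kept probes, where the median distance was 0.062 and the 95th percentile 0.197. This distance is a technical error that holds the probe's own dye effect. A probe was counted as higher or lower at a single time if both orientations differed from untreated by at least 1.5-fold. Errfi1 passed upward at 1 h, as did 0.36% of all kept probes, and at 2 h, as did 0.366%, but not at 4 h, where the share was 0.311%. At a 2-fold threshold Errfi1 passed at 1 h (0.17% of kept probes were higher and 0.00654% lower). No member passed it at 2 h, where 0.134% were higher and 0% lower, or at 4 h, where 0.111% were higher and 0% lower. With 1 treated RNA per time point there is no test at a single time.

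Averaged over the 3 time points, the log2 ratio of Errfi1 was 0.94 ± 0.15 (SE, n = 3 time points), with a limma adjusted p of 0.00864. The time points themselves were at 1.39, 0.94 and 0.47. Every SE given here is limma's moderated one, which draws a probe's own spread towards that of all kept probes. The test adjusts over all 30580 kept probes, of which 10.5% passed upward and 11.4% downward, so passing alone does not set a probe apart. By size, 50 of the kept probes (0.164%) had a mean at least as high as that of Errfi1. Nothing states that time points came from separate cultures, and the spread of the untreated cells is not in the test, so p-values measure only the spread between these samples. The call ended with the scanner's own processed signals (0.964, limma adjusted p = 0.069) and without the 2 h sample (0.933, limma adjusted p = 0.0547), with the estimate hardly moved in either case. Of all kept probes 1033 and 927 rose under these settings, against 3216 with the settings used.

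**Figure D1:**
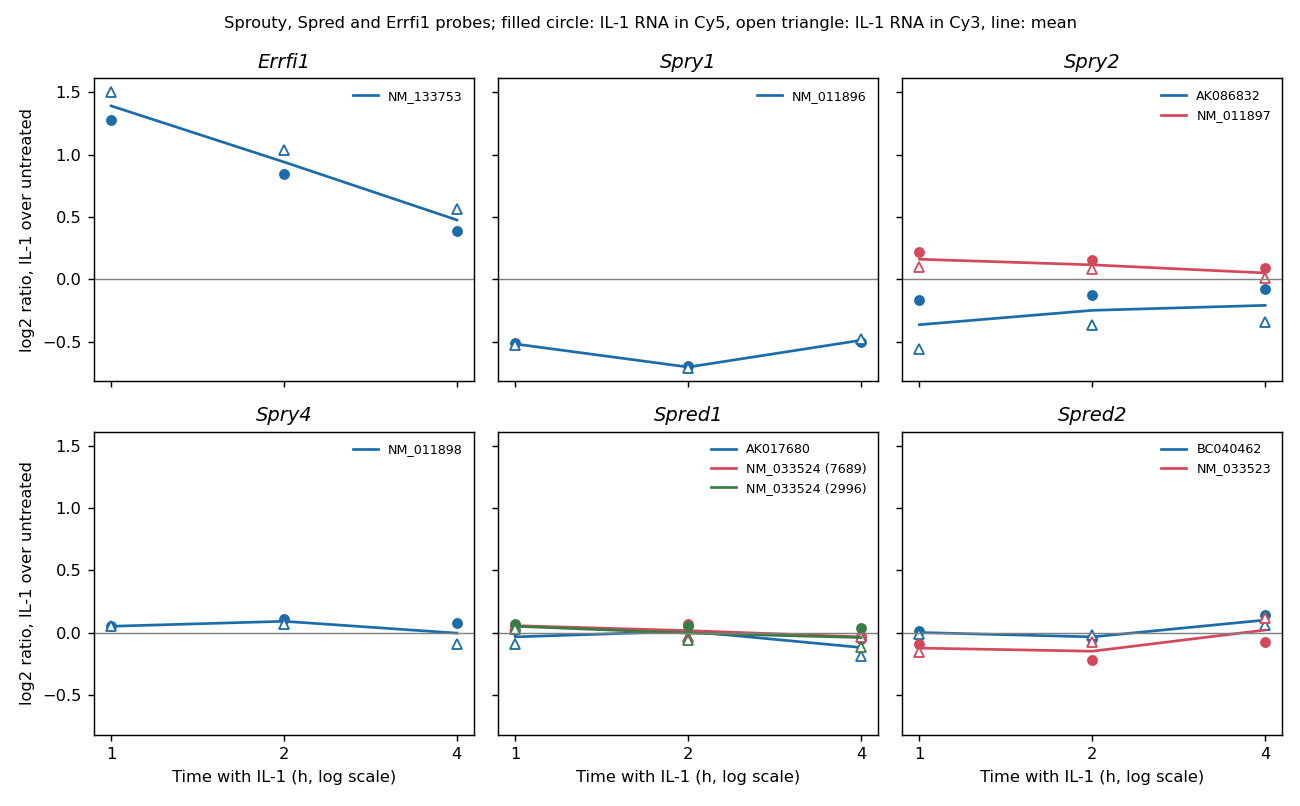
Log2 ratio of IL-1 over untreated (y axis) against time with IL-1 in h (x axis, log scale) for each kept probe of the 6 genes, 1 colour per probe. Filled circles are arrays with the IL-1 RNA in Cy5, open triangles those with it in Cy3, and lines join the means. Errfi1 declines from a mean of 1.39 at 1 h to 0.47 at 4 h, Spry1 lies between -0.49 and -0.70, the Spry2 probes lie on opposite sides of 0, and the Spry4, Spred1 and Spred2 probes stay within -0.22 and 0.14.

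The response of Errfi1 declined with time. The log2 ratio was lower at 2 h than at 1 h by a mean of -0.45 (-0.44 and -0.46 in replicates 1 and 2) and lower at 4 h than at 2 h by -0.47 (-0.45 and -0.48). Between 1 h and 4 h the change was -0.89 and -0.95, past 1.5-fold in both orientations, as it was for 0.164% of kept probes, while 0.0719% were higher by as much. No other member differed by that much between any pair of times. From 1 h to 2 h 0.0719% of kept probes were lower and 0.0164% higher, and from 2 h to 4 h 0.0654% were lower and 0.00327% higher. The slope per doubling of time was -0.46 ± 0.028 (SE, n = 3 time points), with a limma adjusted p of 0.00347. Among all kept probes 0.242% passed this test with a falling slope and 0.196% with a rising one, and 28 probes had a slope at least as steep in the falling direction, Errfi1 included. The slope test has 1 residual degree of freedom. Its call ended with the scanner's processed signals (limma adjusted p = 0.533), with an offset of 16 (0.299) and with a trended robust variance (0.198), at slopes of -0.471, -0.466 and -0.46. Errfi1 was the only 1 of the 10 kept probes to pass, and 2 of the 10 had an unadjusted p under 0.05.

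Spry1 was the gene that fell most, and it stood below the untreated level at each time. Its probe (NM_011896, chr3:37107871-37107930 in the arrays' coordinates) was 1.43-fold lower with IL-1 at 1 h, 1.63-fold lower at 2 h and 1.41-fold lower at 4 h. At 1 h the signals were 924.3 and 861.2 with IL-1, against 1312 and 1244 in untreated cells. At 2 h they were 675.7 and 750.3 with IL-1, against 1100 and 1224 in untreated cells. At 4 h they were 1086 and 882.9 with IL-1, against 1538 and 1230 in untreated cells. The IL-1 channel was the dimmer one on every array, with its highest value just under the lowest untreated value.

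For Spry1 the log2 ratios at 1 h were -0.51 and -0.53. Those at 2 h were -0.70 and -0.71, and those at 4 h -0.50 and -0.48. The orientations of a time point differed little, with distances from their mean of 0.012, 0.0014 and 0.012. Spry1 passed the 1.5-fold size rule downward at 2 h, as did 0.0491% of kept probes, and not at 1 h or 4 h, where the shares were 0.0229% and 0.0425%. Its mean was -0.57 ± 0.044 (SE, n = 3 time points), with a limma adjusted p of 0.00111. Only 15 of the 30580 kept probes (0.0491%), Spry1 among them, had a mean that low or lower. The lowest point was at 2 h in both orientations, lower than at 1 h by -0.20 and -0.18, and the ratio at 4 h was higher than at 2 h by 0.20 and 0.23. A straight line in log2 time cannot take up such a dip, and the slope was 0.01 ± 0.052 (SE, n = 3 time points, limma adjusted p = 0.956). Over the 13 alternatives run, the mean of Spry1 lay between -0.708 and -0.504. The limma adjusted p lay between 0.000121 and 0.0419 over the 12 that count a time point as 1 sample.

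**Figure D2:**
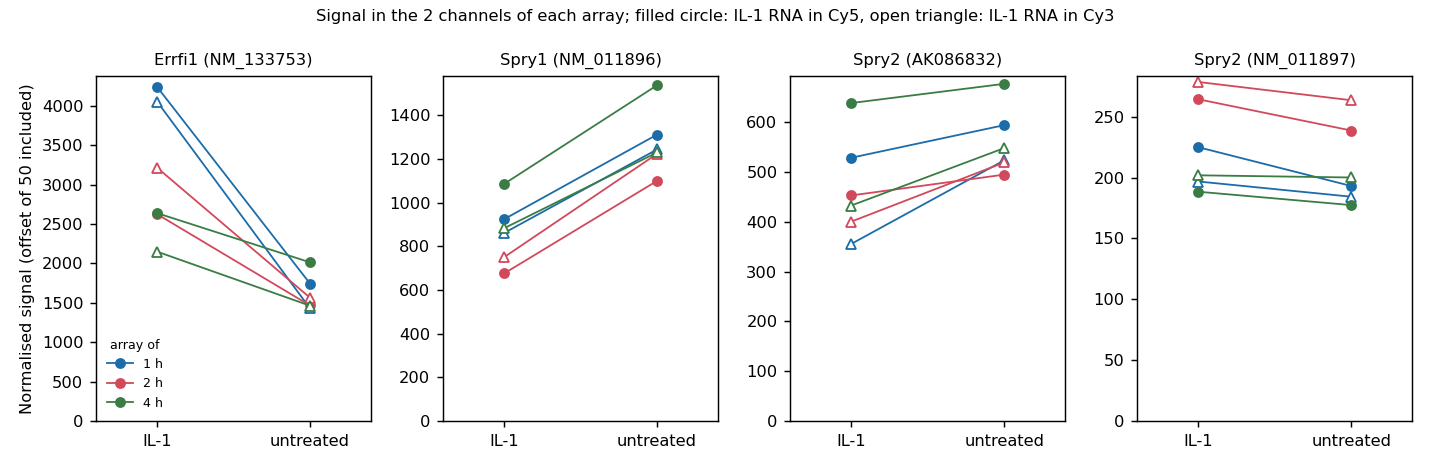
Normalised signal (y axis, offset of 50 included, starting at 0) in the IL-1 channel (left) and the untreated channel (right) of each array, for the probes of Errfi1, Spry1 and Spry2. Lines join the channels of 1 array, colours mark the time point, filled circles mark IL-1 RNA in Cy5 and open triangles IL-1 RNA in Cy3. All 6 lines run down to the right for Errfi1 and up to the right for Spry1, while those of the 2 Spry2 probes run in opposite directions.

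Spry2, which binds the adaptor Grb2 and the ubiquitin ligase Cbl, gave a different answer from each of its 2 probes. The probes lie 516 bases apart on chromosome 14, at chr14:100434980-100435039 (AK086832) and chr14:100435496-100435555 (NM_011897), both on the minus strand. The brighter probe, AK086832, had log2 ratios of -0.17 and -0.56 at 1 h. At 2 h it had -0.13 and -0.37, and at 4 h -0.08 and -0.34. The dimmer probe, NM_011897, had log2 ratios of 0.22 and 0.10 at 1 h. At 2 h it had 0.15 and 0.08, and at 4 h 0.09 and 0.01. All 6 values of the first were below 0 and all 6 of the second above 0. No array had them on the same side.

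The means of both Spry2 probes passed the test. AK086832 fell, at -0.28 ± 0.034 (SE, n = 3 time points, limma adjusted p = 0.0037), or 1.21-fold lower with IL-1. NM_011897 rose, at 0.11 ± 0.028 (SE, n = 3 time points, limma adjusted p = 0.0418), or 1.08-fold higher. The signals of AK086832 were 356 to 639 with IL-1, against 495 to 677 in untreated cells, and those of NM_011897 were 188 to 279 with IL-1, against 177 to 264. Both ranges overlap between the channels. The value of AK086832 depended on the dye, with a mean of -0.127 without replicate 2 and -0.425 without replicate 1. The call of NM_011897 was lost under 7 of 13 alternatives. Its limma adjusted p values ran from 0.0165 to 0.446 over the 12 that count a time point as 1 sample. These counts hold the processed signals and the deposited value table separately, although both give the same means. The call of AK086832 was lost with the scanner's processed signals (-0.316, limma adjusted p = 0.0509), where 933 of all kept probes fell, against 3472 with the settings used. The direction of Spry2 mRNA as a whole was not settled by these probes.

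Spry4 was near the limit of detection. One of its probes did not pass the filter, and the other (NM_011898) was well above background on 2 of 6 arrays in each channel. The signals of the kept probe were 124.7 and 130.1 with IL-1 at 2 h, against 115.4 and 124.0 in untreated cells. On the arrays of 1 h and 4 h they were 61.9 to 68.1 with IL-1, against 60.0 to 65.9 in untreated cells, close to the negative controls. The brighter 2 h arrays were thus brighter in both channels, the untreated one included. The log2 ratios of this probe were 0.05 and 0.05 at 1 h. They were 0.11 and 0.07 at 2 h, then 0.08 and -0.09 at 4 h, and the mean was 0.05 ± 0.027 (SE, n = 3 time points, limma adjusted p = 0.292). With the scanner's processed signals the mean was 0.234 (limma adjusted p = 0.139), and it did not pass under any of the 13 alternatives. A difference in Spry4 was not detectable at this signal.

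The Spred genes showed no response that passed. The 3 Spred1 probes and the 2 Spred2 probes were well above background in both channels of all 6 arrays, a flag that some negative control spots carried too. The log2 ratios of the 5 probes over all arrays lay between -0.22 and 0.14 with the settings used. The dimmer probes were not far above the negative controls (57.4 to 60.8, added offset included). With IL-1, Spred1 probe A_51_P422996 was at 68.9 to 77 and Spred2 probe NM_033523 at 106 to 126. With the scanner's processed signals they stood at -0.292 at 4 h and -0.283 at 1 h, against -0.0356 and -0.125. Neither mean passed there (limma adjusted p = 0.776 and 0.214). A lack of response at these dim probes was thus weakly measured. The brightest Spred1 probe (AK017680) had log2 ratios of 0.02 and -0.09 at 1 h. At 2 h it had 0.06 and -0.04, and at 4 h -0.05 and -0.19, with a mean of -0.05 ± 0.031 (SE, n = 3 time points). The brightest Spred2 probe (BC040462) had log2 ratios of 0.01 and -0.01 at 1 h. At 2 h it had -0.05 and -0.02, and at 4 h 0.14 and 0.06, with a mean of 0.02 ± 0.031 (SE, n = 3 time points). Over the 5 probes the limma adjusted p of the mean was 0.17 to 0.965. All 5 means lay between -0.09 and 0.02, inside the range of -0.16 to 0.16 that holds the middle of all kept probes from the 5th to the 95th percentile.

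**Figure D3:**
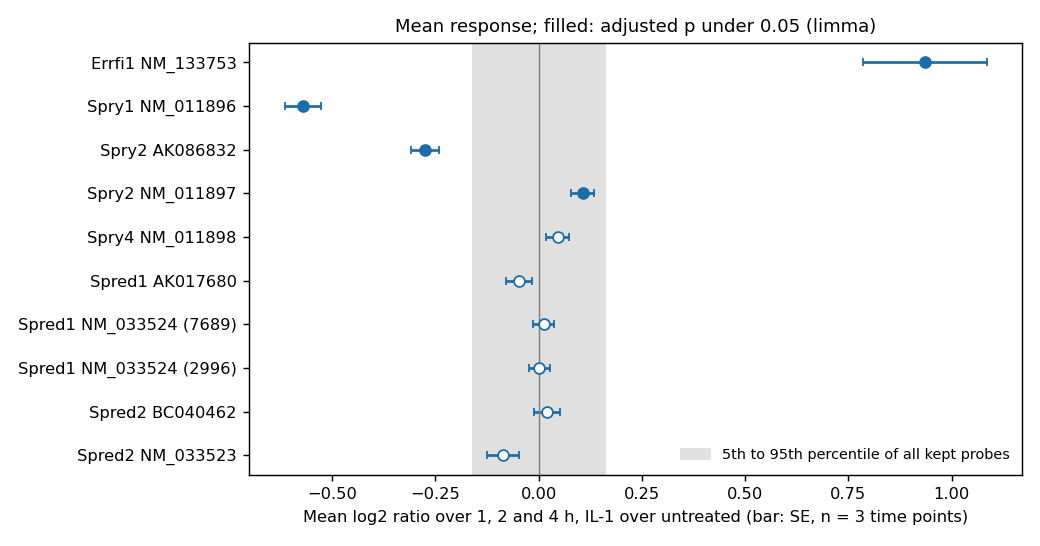
Mean log2 ratio of IL-1 over untreated over 1, 2 and 4 h (x axis) for the 10 kept probes, with bars for limma's moderated SE (n = 3 time points). Filled points passed the limma test at an adjusted p under 0.05, and the grey band holds the 5th to 95th percentile of all kept probes, -0.16 to 0.16. Errfi1 (0.94), Spry1 (-0.57) and 1 Spry2 probe (-0.28) lie outside the band and the other 7 probes inside it.

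In all, 2 of the 10 kept probes rose in the mean response (Errfi1 and 1 Spry2 probe) and 2 fell (Spry1 and the other Spry2 probe), against the 10.5% and 11.4% given above. The median of the 10 means was 0.0069, against 0.0021 over all kept probes. Rising and falling probes were thus equal in number. Under the size rule, 1 probe was higher and 0 lower at 1 h, 1 was higher and 1 lower at 2 h, and 0 were higher and 0 lower at 4 h.

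**Figure D4:**
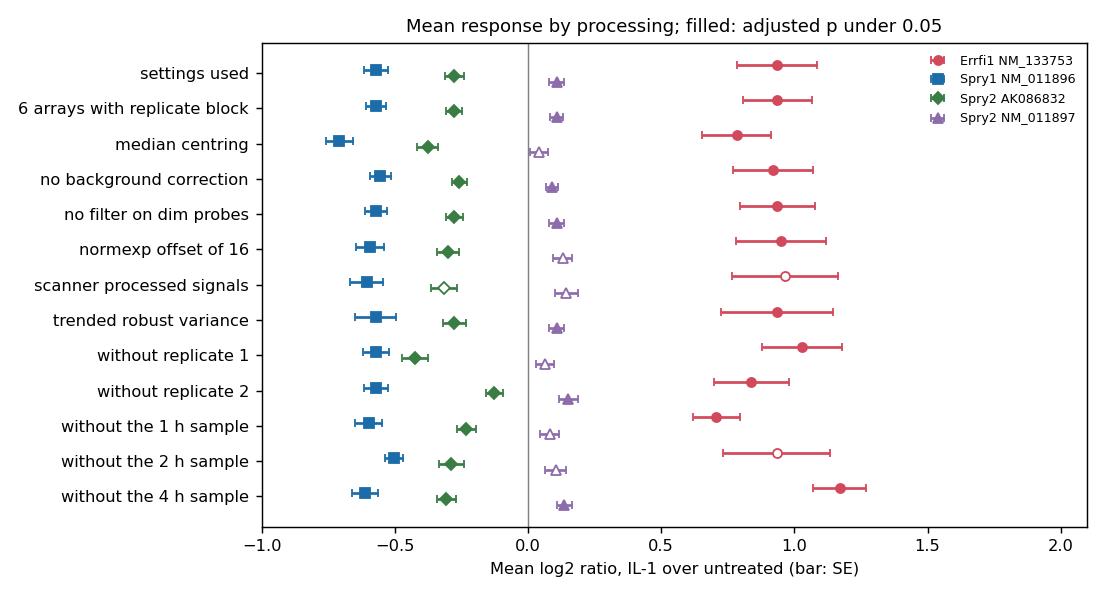
Mean log2 ratio of IL-1 over untreated over the time points used (x axis, bars for the SE) of the Errfi1, Spry1 and Spry2 probes under the settings used (top) and 12 alternatives. Filled symbols passed the limma test at an adjusted p under 0.05. All 4 probes keep their side of 0 throughout, Spry1 is filled in every row, and Errfi1 is open with the scanner's processed signals (0.964) and without the 2 h sample (0.933).

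The genes with a time course most like those of Errfi1 and Spry1 were taken by the Euclidean distance over the 3 log2 ratios, among 15455 named genes with 1 probe each. Nearest to Errfi1 were Birc3, which encodes a ubiquitin ligase of the apoptosis inhibitor family (1.48, 0.98 and 0.59 at 1, 2 and 4 h, distance 0.15), the circadian gene Noct (1.4, 1.17 and 0.45, distance 0.23) and the stress gene Gadd45b (1.62, 0.98 and 0.31, distance 0.28). Nearest to Spry1 were the neurotrophin gene Bdnf (-0.48, -0.69 and -0.55, distance 0.069), Gadd45g (-0.46, -0.77 and -0.48, distance 0.086) and the protocadherin gene Pcdh18 (-0.51, -0.61 and -0.54, distance 0.10). With 3 time points such likeness is a description only. The brightest probes of the other members did not reach a dye-averaged log2 ratio of 0.5 in size at any time, and these members were not matched.

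The rest of the receptor kinase pathway was read from 5 lists, with the brightest probe standing for a gene. Over all 15455 named genes, 12.2% rose and 12.6% fell in the mean response, and their median was 0.0034. Among receptor kinases 3 of 14 rose and 0 fell, led by the FGF receptor gene Fgfr1 (0.26, 0.35 and 0.62 at 1, 2 and 4 h, mean 0.41) and Axl (0.33, 0.34 and 0.31, mean 0.32). The EGF receptor gene Egfr, whose product Errfi1 inhibits, was the third, at a mean of 0.16 ± 0.0349 (SE, n = 3 time points, limma adjusted p = 0.0237), named here after its value was seen. Its call was lost with median centring, where Fgfr1 and Axl were the 2 receptor kinases that rose. The list median was 0.03.

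Among 15 measured ligands 3 rose and 1 fell, with a list median of -0.029. The keratinocyte growth factor gene Fgf7 was at 0.18, 0.49 and 0.67 (mean 0.44) and the PDGF gene Pdgfa at 0.31, 0.52 and 0.30 (mean 0.37). Of 20 adaptors and members of the Ras and ERK cascade 5 rose and 1 fell, with a median of 0.0014, and none of those 6 reached 0.3 in size. The direction of these lists was not stable. When loess was replaced by centring each array on its median, 0 cascade genes rose and 8 fell. The median of the receptor list turned to -0.014 and that of the cascade list to -0.041. All kept probes moved the same way, from 3216 rising and 3472 falling to 1681 and 7454. Their median went from 0.0021 to -0.021, so the shift was not particular to these lists.

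Of 16 other measured inhibitors of receptor kinase signalling 4 rose and 4 fell, with a median of 0.033. With median centring this median turned to -0.054, against -0.021 over all kept probes. Lrig1, a membrane protein that promotes degradation of EGF receptor family members, rose to 0.48, 0.87 and 1.07 at 1, 2 and 4 h, a mean of 0.81 ± 0.102 (SE, n = 3 time points, limma adjusted p = 0.00398). Its course ran opposite to that of Errfi1, with a slope of 0.30 (limma adjusted p = 0.0294) where Errfi1 had -0.46. The slope calls of both genes were lost with the scanner's processed signals, the value table, an offset of 16 and a trended robust variance, settings under which limma called 0 slopes of any probe (1488, 1488, 1582 and 1799 rising at an unadjusted p under 0.05). Spred3, the paralog of Spred1 and Spred2, was at a mean of -0.03 and did not pass (limma adjusted p = 0.397). Spry3 has no kept probe here.

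Among 10 genes commonly used as targets of ERK signalling 6 rose and 2 fell, with a median of 0.14. The stress gene Ier3 was at 1.85, 1.33 and 1.11 at 1, 2 and 4 h, the AP-1 gene Fosl1 at 0.91, 0.48 and 0.36, Phlda1 at 0.81, 0.46 and 0.11 and the urokinase receptor gene Plaur at 0.44, 0.30 and 0.18. The ratios of these 4 genes were highest at 1 h and lowest at 4 h, as they were for Errfi1. The others that rose, below the size set for naming, did not share this order. Etv4 was at 0.17, 0.20 and 0.21 and Ccnd1 at 0.10, 0.12 and 0.06. Egr1 fell, at -0.11, -0.55 and -0.41. All 10 genes named here from the lists by the fixed rule kept their direction and their call with median centring. With the scanner's processed signals all 10 kept their direction, and 2 of the 10 passed, Axl (limma adjusted p = 0.0408) and Ier3 (0.0422). Of all kept probes 1033 rose and 933 fell with those signals, against 3216 and 3472 with the settings used.

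**Figure D5:**
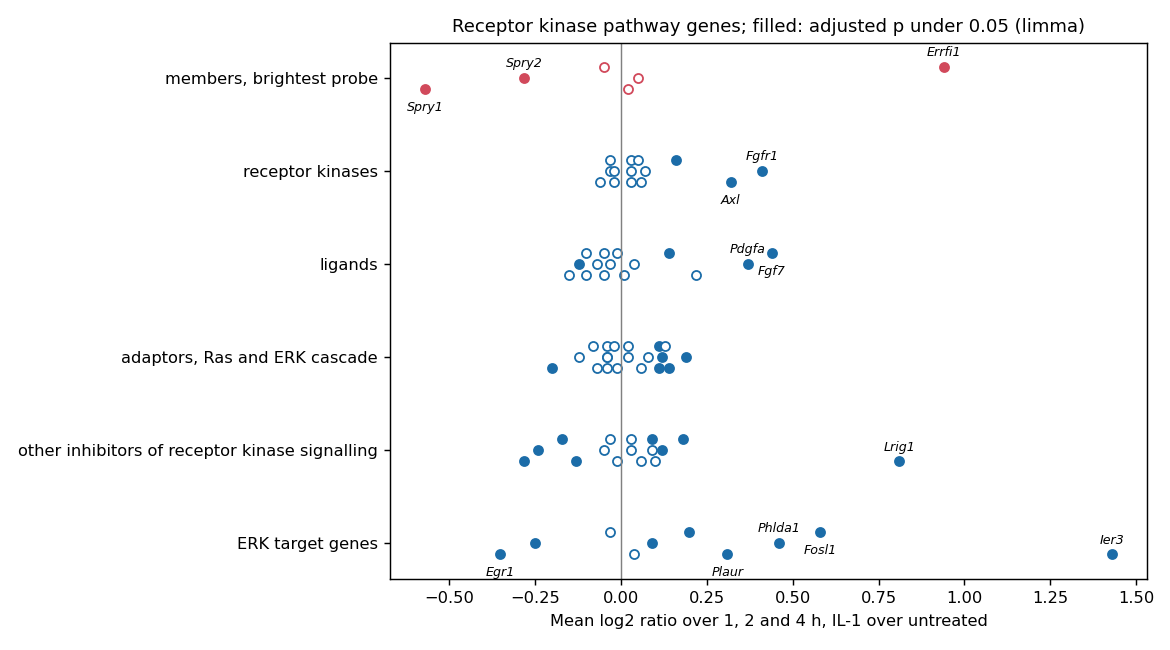
Mean log2 ratio of IL-1 over untreated over 1, 2 and 4 h (x axis) for the brightest probe of each member gene (top row, red) and of each measured gene of the 5 pathway lists (blue). Filled points passed the limma test at an adjusted p under 0.05, and points are spread vertically only for legibility. Errfi1 (0.94) lies between Lrig1 (0.81) and Ier3 (1.43), and Spry1 (-0.57) lies below every gene of the 5 lists.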

How the data were processed

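RNA of IL-1-treated and untreated dermal fibroblasts was compared on 6 two-colour Agilent arrays. The intensity columns deposited by the authors hold each spot's mean signal and local background from Agilent Feature Extraction 7.5.1, per the file headers, and a second pair of intensity columns was background-subtracted and dye-normalized by that software. The deposited value table has log2 ratios of IL-1 over untreated, by the authors. Each of its columns matches, for 100% of spots within 0.001, the processed signals of the partner array with the opposite dyes, so the columns of a pair are exchanged between table and scanner files. Pair means do not change if the table is at fault. If the scanner files were, every sign would turn, and known IL-1 targets would be lower with IL-1. With the dyes as labelled, the direction used here, log2 ratios at 1, 2 and 4 h were 6.21, 5.49 and 4.84 for Cxcl1, 3.02, 2.65 and 1.87 for Nfkbia, and 2.51, 2.96 and 2.73 for Il6. The table's column medians, in the order of times and replicates, are -0.0323, 0.0301, -0.0357, 0.0353, -0.036 and 0.0324.

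Mean signals were corrected with normexp (offset 50), normalized within arrays by loess and averaged over the 2 arrays of a time point, with limma 3.58.1 in R 4.3.3. Control spots had weight 0 and spots flagged as outliers were dropped. Kept probes were well above background on all arrays of 1 or more of the 4 conditions. The mean over 3 time points and the slope on log2 time were each set against 0 with lmFit and eBayes (two-sided test), with Benjamini-Hochberg adjustment over all kept probes and a threshold of 0.05. Names came from RefSeq accessions for 18712 kept probes and from the files otherwise, and the brightest kept probe stood for a gene. Each array is a slide of its own, so slide effects could not be fitted. The replicate numbers mark dye orientation per the labels, and across probes the deviations from the time means of arrays with the same number had correlations of 0.765 to 0.843. The fit was tested on simulated data with independent time points, which cannot show the spread between cultures or of the untreated cells. Genes named from the lists by the fixed rule are those that passed with a mean of at least 0.3 in size. The members, lists and motifs were chosen with earlier results of these data known.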

Additional observations from a re-analysis of the deposited data

Results flagged for a closer look

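The response of Errfi1 differed between the time points by the slope test, at -0.46 log2 units per doubling of time (limma adjusted p = 0.00347). Over the alternatives that count a time point as 1 sample, the limma adjusted p reached 0.533. It was lowest with median centring (3.68e-19), but there limma gave all kept member probes the same slope SE of 0.046. The probe's own spread did not enter that value, which is not a measure of certainty. A probe of Spred1 (NM_033524, A_52_P637689) was above 0 in both orientations at 1 h and below 0 in both at 4 h, a difference of -0.09 that was not tested by itself. The technical distance of this probe was 0.0041 at 1 h, 0.055 at 2 h and 0.0043 at 4 h. Over all kept probes the median was 0.062 and the 95th percentile 0.197. Its signals were low, at 96.4 to 111 with IL-1 and 94.1 to 107 in untreated cells, the added offset included. Its slope did not pass (limma adjusted p = 0.663). The Spred2 probe BC040462 was below 0 in both orientations at 2 h and above 0 in both at 4 h, a difference of 0.13 that was likewise not tested by itself.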

How the results depend on the processing

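The mean of Spry1 kept its direction and its call under all 13 alternatives. The processed signals and the deposited value table share their pair means, so they are in effect 1 alternative. The mean of Errfi1 stayed positive under all 13 (0.707 to 1.17, limma adjusted p from 0.00136 to 0.069 over the 12 that count a time point as 1 sample) and missed the threshold with the scanner's processed signals and the deposited value table (0.964 with both) and without the 2 h sample (0.933). Its slope stayed between -0.475 and -0.445, and missed the threshold with those same signals and with the value table (-0.471), with an offset of 16 (-0.466) and with a trended robust variance (-0.46). Under these 4 settings limma called 0 probes of all with a rising or falling slope, where 1488, 1488, 1582 and 1799 rising and 1272, 1272, 1213 and 1400 falling had an unadjusted p under 0.05. The Spry2 probe AK086832 missed it with the processed signals and the value table (-0.316 with both, limma adjusted p = 0.0509, range 0.000398 to 0.0509 over the same 12). The brightest Spred1 probe passed with median centring (-0.129, limma adjusted p = 0.0123, range 0.0123 to 0.844).

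Of the 10 kept probes, 0 rose with processed signals, the value table or without the 2 h sample (limma, unadjusted 3, 3 and 2). There 1033, 1033 and 927 of all kept probes rose, against 3216. Of the 10, 1 rose with median centring, an offset of 16, without the 1 h sample and without replicate 1. The fits without a replicate gave 1 to 2. The number that fell was 1 with the processed signals and the value table, where 933 of all fell. The number with a falling slope was 0 under the 4 settings above (limma, unadjusted 3, 3, 1 and 1). The dimmer Spred2 probe passed without the 4 h sample (-0.14, limma adjusted p = 0.0234) and without replicate 2 (-0.131, limma adjusted p = 0.0342), range 0.0234 to 0.604. With median centring 0 members were higher at 1 h or 2 h and 0 lower at 2 h by the size rule. The dye-dependent part of a ratio is then left in. Errfi1 stood at 1.96 and 0.52 at 1 h in replicates 1 and 2 and Spry1 at 0.11 and -1.43. At a 2-fold threshold 0 were higher and 0 lower at 2 h. Median centring gave 3 receptor kinases, 5 ligands and 8 cascade genes that fell, and 0 cascade genes and 2 other inhibitors that rose. Over all kept probes it gave 7454 that fell and 1681 that rose. The mean of all kept probes of a gene gave 2 cascade genes that fell. The fit of 6 arrays with dye orientation as a replicate block gave 0.936 for Errfi1 and changed no call of a member, but it counts dye swaps of the same RNAs as separate samples, so its p-values are too small and are not given. Over all kept probes the alternatives gave 927 to 6268 rising and 861 to 7454 falling means, against 3216 and 3472 with the settings used. By the size rule they gave 43 to 205 higher and 2 to 67 lower probes at 1 h, against 110 and 7, 35 to 235 and 0 to 83 at 2 h, against 112 and 15, and 34 to 199 and 0 to 80 at 4 h, against 95 and 13. Low signal over background limits Spry4 most, whose log2 ratio at 1 h was 0.0495, 0.0984 with an offset of 16, 0.0388 with no background correction, and 0.419 with the processed signals and the value table, which differ in more than the offset.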
